A study of Mus musculus with 18 samples.

Results

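Expression of 9 genes of the interferon response, Stat2, Irf9, Irf7, Isg15, Ifit1, Ifit3, Oasl2, Ifitm3 and Bst2, was measured by RNA-Seq in the granule cell layer of the ventral dentate gyrus. They were taken by symbol from a list of well-known members of the pathway, chosen with earlier results of these data known. They are 9 of the 34620 genes in the count tables, and all 9 were among the 17421 genes with enough counts to be tested. The study asked how a mother's deficit in the serotonin 1A receptor affects the brains of her descendants. All mice were adult males of the outbred Swiss Webster strain, 8 to 12 weeks old, and each of 3 groups had 2 libraries. WT males had WT mothers and WT grandmothers. F1 males had mothers and grandmothers of the genotype 5HT1A-/+, heterozygous for a knockout of the receptor gene. F2 males had WT mothers, which were F1 females, and 5HT1A-/+ grandmothers. By the study's methods the F1 and F2 males were themselves WT for the receptor. The WT males came from a separate line bred in parallel, so maternal genotype and line cannot be told apart. How many mice a library stands for is not given in the sources used here. The p-values rest only on the spread between these libraries, with each gene's spread drawn toward a value common to all genes.

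Interferons are secreted when cells sense viral nucleic acid, and in the brain microglia and astrocytes are among their sources. Type I interferon binds the Ifnar1-Ifnar2 receptor, whose kinases Jak1 and Tyk2 phosphorylate Stat proteins, Stat2 among them. Stat2 joins Irf9 in the factor ISGF3, which binds the interferon-stimulated response element (ISRE) in the promoters of interferon-stimulated genes and switches on antiviral effectors together with parts of the pathway itself.

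The layer was microdissected from frozen sections. The deposited values are reads per gene, and the libraries held 26358165 to 33727936 reads on genes. They are given here as CPM, counts scaled to library size with TMM factors. Groups were compared by the exact test of edgeR, p-values were adjusted over all tested genes by Benjamini-Hochberg, and a gene was called at an adjusted p under 0.01. Markers of dentate granule cells were at 928 to 1457 CPM in sum, and none of the 7 was called in either generation. In F2 all 7 had positive changes, with a median of 0.44, and both sums, 1457 and 1283 CPM, lay above the WT sums of 1067 and 1117 CPM. At an unadjusted p under 0.05 the count was 2 of 7 in F1 and 6 in F2, where 32.6% and 32.4% of all tested genes were under it. Reads that fell outside annotated exons took 17.7% and 20.7% of the total in the WT libraries against 12.2% to 17.4% in the F1 and F2 libraries. The part of this difference in the results was not tested.

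The promoters of the 9 genes were searched for the core of the ISRE, taken as 2 copies of GAAA with any 2 bases between them, on either strand and with overlaps counted, in RefSeq windows of 300 bases, 250 before the start site and 50 after it (build GRCm38.p6). The core was found in 6 of the 9 genes, while 3.99% of the 27025 genes with a window hold it. Isg15 had 3 matches, Ifit1, Ifit3, Ifitm3 and Bst2 had 2 each, and Stat2 had 1. No match lay in the windows of Irf9, Irf7 or Oasl2. Matches in 2 or more places occur in 0.225% of all 32851 windows. A shorter pattern, the interferon gamma activated sequence TTCNNNGAA, was found in Bst2 and Ifitm3 and in 9.55% of all genes. A match describes the letters only and is not evidence of binding. The 5 windows below are printed because they set the 2 genes called lower than WT, Stat2 and Irf9, beside 3 effector genes that were not called. Letters are 5′ to 3′ on the gene's strand, with matches to the ISRE core, on either strand, in capitals. The windows are chr10:128270248-128270547 on the plus strand for Stat2, chr14:55603735-55604034 on the plus strand for the first of the 2 windows of Irf9, chr4:156200769-156201068 on the minus strand for Isg15, chr19:34640639-34640938 on the plus strand for Ifit1 and chr19:34583279-34583578 on the plus strand for Ifit3.
Stat2: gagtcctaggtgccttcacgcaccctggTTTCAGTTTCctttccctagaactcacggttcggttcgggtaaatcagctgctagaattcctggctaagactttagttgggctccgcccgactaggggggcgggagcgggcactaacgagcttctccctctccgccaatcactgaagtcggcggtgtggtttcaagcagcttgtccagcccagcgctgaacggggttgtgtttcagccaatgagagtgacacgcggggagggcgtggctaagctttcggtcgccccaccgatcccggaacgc
Irf9: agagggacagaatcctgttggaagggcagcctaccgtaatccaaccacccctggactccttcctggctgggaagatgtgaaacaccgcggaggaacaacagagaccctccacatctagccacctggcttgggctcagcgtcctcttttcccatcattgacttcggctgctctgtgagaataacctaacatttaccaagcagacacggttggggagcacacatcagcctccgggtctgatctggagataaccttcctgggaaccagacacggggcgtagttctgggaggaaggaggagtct
Isg15: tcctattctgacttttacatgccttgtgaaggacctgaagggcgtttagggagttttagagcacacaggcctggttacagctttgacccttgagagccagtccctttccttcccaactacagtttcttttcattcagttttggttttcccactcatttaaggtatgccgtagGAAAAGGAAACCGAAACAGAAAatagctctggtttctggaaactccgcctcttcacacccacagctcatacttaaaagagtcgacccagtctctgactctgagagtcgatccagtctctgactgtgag
Ifit1: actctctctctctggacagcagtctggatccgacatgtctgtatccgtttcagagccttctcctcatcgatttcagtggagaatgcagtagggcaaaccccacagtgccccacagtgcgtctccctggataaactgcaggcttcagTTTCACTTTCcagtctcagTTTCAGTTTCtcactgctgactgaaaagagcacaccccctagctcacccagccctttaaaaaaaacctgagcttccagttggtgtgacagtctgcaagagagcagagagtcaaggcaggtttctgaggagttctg
Ifit3: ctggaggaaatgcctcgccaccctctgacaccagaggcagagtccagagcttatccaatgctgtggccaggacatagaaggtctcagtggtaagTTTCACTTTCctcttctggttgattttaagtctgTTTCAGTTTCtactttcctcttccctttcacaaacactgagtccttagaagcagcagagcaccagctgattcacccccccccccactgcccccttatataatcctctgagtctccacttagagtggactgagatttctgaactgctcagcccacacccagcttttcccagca
Relative to the start site, the match of Stat2 lies from -222 to -213 and reads on the opposite strand. In Isg15 the 3 matches overlap and span -78 to -57. In Ifit1 the matches begin at -104 and -85, and in Ifit3 at -156 and -122, all on the opposite strand.

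Levels were compared between genes as CPM per kilobase of annotated exon. The exons of all annotated transcripts of a gene were joined, to 5386 bases for Irf9 and 3023 for Irf7. The order below depends on these lengths. In WT, Stat2 was highest at 10.2 ± 1.61 (SD, n = 2), followed by Ifitm3, a membrane protein that blocks virus entry, at 9.05 ± 1.38. Irf9 was at 4.53 ± 1.81 and Isg15, a ubiquitin-like modifier, at 3.48 ± 0.249. Bst2, the surface protein tetherin that holds budding virions, was at 2.16 ± 0.379, and Ifit3 at 1.05 ± 0.204. Oasl2, of the oligoadenylate synthetase family, was at 0.609 ± 0.0397, Irf7, which drives interferon genes, at 0.530 ± 0.0903, and the RNA-binding protein Ifit1 at 0.508 ± 0.0131. The ranges of the WT libraries overlapped between Stat2 and Ifitm3, between Irf9 and Isg15, between Oasl2 and Irf7 and between Irf7 and Ifit1. They did not overlap between the other neighbours in this order. In F1 and F2 Ifitm3 stood first and Stat2 second, and Irf9 stood 6th and 5th of the 9.

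**Figure D1:**
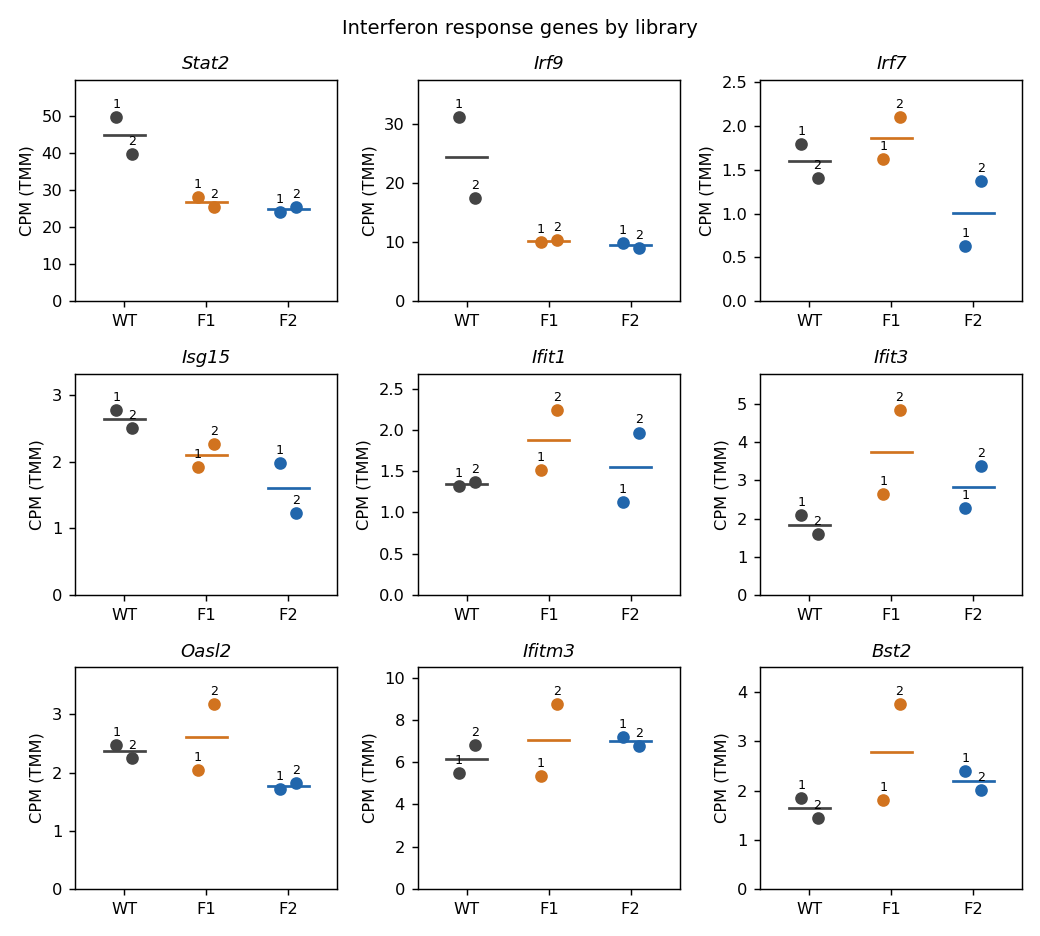
Expression of the 9 genes in each library, in CPM after TMM scaling. Points are libraries marked with their replicate number, and lines are group means of 2. Stat2 (24.2 to 28.3 CPM) and Irf9 (9.10 to 10.4 CPM) are lower in all 4 F1 and F2 libraries than in both WT libraries, while F1 replicate 2 is the highest library for 6 of the other 7 genes.

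Stat2 and Irf9, subunits of ISGF3, fell below WT in both generations, and the other 7 genes did not pass the test in either. Stat2 had 646 to 1694 reads per library and Irf9 245 to 1064, against 17 to 270 for the other 7. Standard errors of the changes against WT were 0.15 for Stat2, 0.24 for Irf9 and 0.25 to 0.38 for the other 7. For these 7 a missing call does not by itself show that expression was unchanged. Of the 9 genes 2 were called, both lower, in F1, where 12.3% of all tested genes were called, 8.54% lower and 3.77% higher. The same 2 were called lower in F2, where 12% of all genes were called, 8.1% lower and 3.86% higher. Of all genes 6.07% were lower in both generations and 1.6% higher in both, beside 2 and 0 of the 9. Since the 9 were chosen with earlier results known, these shares are a description and not a test. The median log2 fold change of the 9 genes was 0.20 in F1 and -0.42 in F2, beside 0.01 and -0.00035 for all tested genes. For the 7 genes other than Stat2 and Irf9 it was 0.21 and 0.19. Of these 7, 6 were positive and 1 negative in F1, and 4 were positive and 3 negative in F2.

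Stat2 (mm9 chr10:127707629-127729905, plus strand) encodes the Stat protein particular to type I and type III interferon. It was at 49.8 and 39.8 CPM in the WT libraries, 28.3 and 25.4 CPM in F1, and 24.2 and 25.5 CPM in F2. All 4 F1 and F2 libraries lay below both WT libraries, and the F1 and F2 ranges overlapped. Stat2 fell by 0.74 on the log2 scale in F1 (SE 0.15, edgeR adjusted p = 2.22e-05), which is 1.67-fold lower. In F2 it fell by 0.85 (SE 0.15, edgeR adjusted p = 7.81e-07), which is 1.81-fold lower. WT replicate 1 was the higher of the WT libraries, and without it the log2 fold change of Stat2 in F1 was -0.57 (edgeR adjusted p = 0.0137), past the threshold no longer, while F2 stayed called.

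Irf9 (mm9 chr14:56222408-56228867, plus strand) encodes the subunit that gives ISGF3 its contact with the ISRE. It was at 31.3 and 17.5 CPM in WT, 10.002 and 10.4 CPM in F1, and 9.87 and 9.10 CPM in F2. The WT libraries differed from each other more than the F1 and F2 libraries did, and the lower of the WT libraries was still above all 4 others. Irf9 fell by 1.26 on the log2 scale in F1 (SE 0.24, edgeR adjusted p = 4.42e-06), which is 2.40-fold lower. In F2 it fell by 1.37 (SE 0.24, edgeR adjusted p = 6.62e-07), which is 2.58-fold lower. Leaving out WT replicate 1 brought the log2 fold changes to -0.78 and -0.88, both still called.

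**Figure D2:**
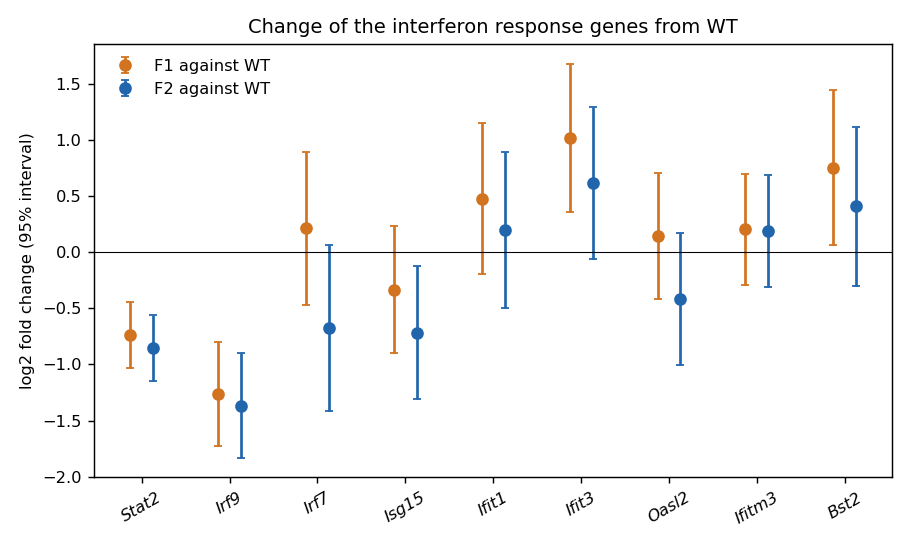
Log2 fold change of the 9 genes in F1 and in F2 against WT, with 95% intervals from the standard errors of the fit. The intervals of Stat2 and Irf9 lie below 0 in both generations, and those of the other genes reach 0 in at least 1 of the generations. Both comparisons use the same 2 WT libraries.

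Irf7, itself an interferon-stimulated gene, was at 1.79 and 1.41 CPM in WT, 1.62 and 2.10 CPM in F1, and 0.636 and 1.37 CPM in F2. Its WT and F1 libraries overlapped, and both F2 libraries lay below WT, F2 replicate 2 only just. The log2 fold changes were 0.21 in F1 (SE 0.35, edgeR adjusted p = 0.745) and -0.67 in F2 (SE 0.38, edgeR adjusted p = 0.208). The 95% interval of the F2 change reached from -1.41 to 0.06, which includes a loss as large as that of Stat2, at 17 to 65 reads per library. Isg15 was at 2.77 and 2.50 CPM in WT, 1.91 and 2.27 CPM in F1, and 1.98 and 1.23 CPM in F2. All F1 and F2 libraries were below both WT libraries, as in 30.6% of all genes for F1 and 32% for F2. The changes were -0.33 in F1 (SE 0.29, edgeR adjusted p = 0.472) and -0.72 in F2 (SE 0.30, edgeR adjusted p = 0.0752), neither past the threshold. Their 95% intervals, from -0.90 to 0.23 and from -1.31 to -0.13, each included the change of Stat2 in that generation.

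Ifit1 and Ifit3 lie near each other on chromosome 19 and encode related proteins of the antiviral response. Ifit3 was at 2.09 and 1.58 CPM in WT, 2.64 and 4.83 CPM in F1, and 2.28 and 3.38 CPM in F2. Both generations lay above WT, as in 29.8% of all genes for F1 and 31% for F2, and F1 replicate 2 was well above the rest. The log2 fold change was 1.02 in F1 (SE 0.34, edgeR adjusted p = 0.0186), short of the threshold, and 0.62 in F2 (SE 0.34, edgeR adjusted p = 0.21). Without F1 replicate 1 the change in F1 was 1.40 and was called, and without F1 replicate 2 it was 0.52 with an edgeR adjusted p of 0.364. Ifit3 and Ifit1 belong to a cluster of related genes, and reads that matched several places were not counted, so levels in the cluster are uncertain. Ifit1 was at 1.32 and 1.37 CPM in WT, 1.52 and 2.23 CPM in F1, and 1.12 and 1.97 CPM in F2. Its F1 libraries were above WT and its F2 libraries lay on either side of it, with changes of 0.48 (edgeR adjusted p = 0.356) and 0.20 (edgeR adjusted p = 0.789).

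Oasl2 was at 2.47 and 2.25 CPM in WT, 2.05 and 3.17 CPM in F1, and 1.72 and 1.82 CPM in F2. F1 spread to both sides of WT and both F2 libraries lay below it, and the change in F2 was -0.42 (SE 0.30, edgeR adjusted p = 0.355). The 95% interval of that change, from -1.01 to 0.17, included the F2 change of Stat2. In F2 the intervals of Ifit1, Ifit3, Ifitm3 and Bst2 did not reach that far down. In F1, among the genes not called, only the interval of Isg15 included the change of Stat2. Ifitm3 was at 5.47 and 6.79 CPM in WT, 5.35 and 8.74 CPM in F1, and 7.22 and 6.76 CPM in F2, with all groups overlapping. Its changes of 0.20 in F1 and 0.19 in F2 had 95% intervals from -0.29 to 0.70 and from -0.31 to 0.69, which leave out a fall as deep as that of Irf9. Bst2 was at 1.85 and 1.44 CPM in WT, 1.82 and 3.76 CPM in F1, and 2.39 and 2.00 CPM in F2. The highest library was again F1 replicate 2, and the changes were 0.75 in F1 (SE 0.35, edgeR adjusted p = 0.121) and 0.41 in F2 (SE 0.36, edgeR adjusted p = 0.472). Without F1 replicate 1 the change of Bst2 in F1 was 1.19 and was called, and without F1 replicate 2 it was 0.14. The directions of Oasl2 and Ifitm3 in F1 also turned without F1 replicate 2, to -0.20 and -0.19.

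Set directly against each other, F2 and F1 differed in none of the 9 genes by edgeR's exact test, where 0.74% of all tested genes were called, 0.436% lower. At an unadjusted p under 0.05 the count was 1 of 9, beside 8.64% of all tested genes, and edgeR's quasi-likelihood test and DESeq2 also called 0. All 9 log2 fold changes were below 0, with a median of -0.34, beside 8753 of the 17421 tested genes below 0 and a median of -0.0015. The largest was that of Irf7, at -0.89 (SE 0.37, edgeR adjusted p = 0.386). For Stat2 the difference was -0.11 with a 95% interval from -0.41 to 0.18, and for Irf9 -0.11 with an interval from -0.58 to 0.37. Both F2 libraries lay below both F1 libraries in Irf9, Irf7 and Oasl2, which is 3 of the 9, beside 19.7% of all genes. Without F1 replicate 2 the difference turned positive for Ifit1, Ifit3, Ifitm3 and Bst2.

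No ligand gene was expressed at a level that could be tested. Of the 19 interferon genes listed, 14 had no read in any library, among them Ifnb1, and the other 5 had 11 reads in all. A count of 0 allows up to 3 reads, or 0.0882 to 0.112 CPM depending on the library. Ifng, the interferon of T and natural killer cells, had 1 read in WT replicate 1 and 2 reads in F1 replicate 2.

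The receptor subunits were expressed in every library. Ifnar1 was at 42.9 and 39.4 CPM in WT, 38.2 and 43.1 CPM in F1, and 39.0 and 37.9 CPM in F2. Ifnar2 lay between 14.7 and 17.1 CPM in all 6 libraries, and Ifngr1, of the interferon gamma receptor, between 9.01 and 11.3 CPM. None of these 3 passed the test, with log2 fold changes from -0.10 to 0.28. Ifngr2, the second chain of the interferon gamma receptor, rose in F1 by 0.45 (SE 0.13, edgeR adjusted p = 0.00424), the only call among the 5 receptor genes tested, and its change in F2 was 0.27.

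Of the 10 other kinases and transcription factors, 2 were lower in both generations, 0 were higher and 8 were not called. Of all tested genes 6.07% were lower in both and 1.6% higher in both. Tyk2, the kinase bound to Ifnar1, was at 54.9 and 43.9 CPM in WT, 27.8 and 23.2 CPM in F1, and 23.7 and 25.1 CPM in F2. Every F1 and F2 library was far below WT. Tyk2 fell by 0.95 on the log2 scale in F1 (SE 0.15, edgeR adjusted p = 3.36e-08) and by 1.02 in F2 (SE 0.15, edgeR adjusted p = 4.35e-09). Irf3, which turns on interferon genes after viral sensing, was at 44.6 and 30.3 CPM in WT, 21.6 and 20.5 CPM in F1, and 17.6 and 21.8 CPM in F2. It fell by 0.83 in F1 (edgeR adjusted p = 0.000175) and by 0.93 in F2 (edgeR adjusted p = 2.43e-05). These calls were lost without WT replicate 1 in both generations, without F1 replicate 2 in F1 and without F2 replicate 1 in F2, with edgeR adjusted p-values up to 0.0604 and 0.0248. Jak1, the most abundant of these kinases, was at 158 and 153 CPM in WT, 183 and 199 CPM in F1, and 191 and 170 CPM in F2. Its changes of 0.30 in F1 and 0.22 in F2 did not pass the test. No ISRE core lay in the windows of Tyk2 or Irf3.

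**Figure D3:**
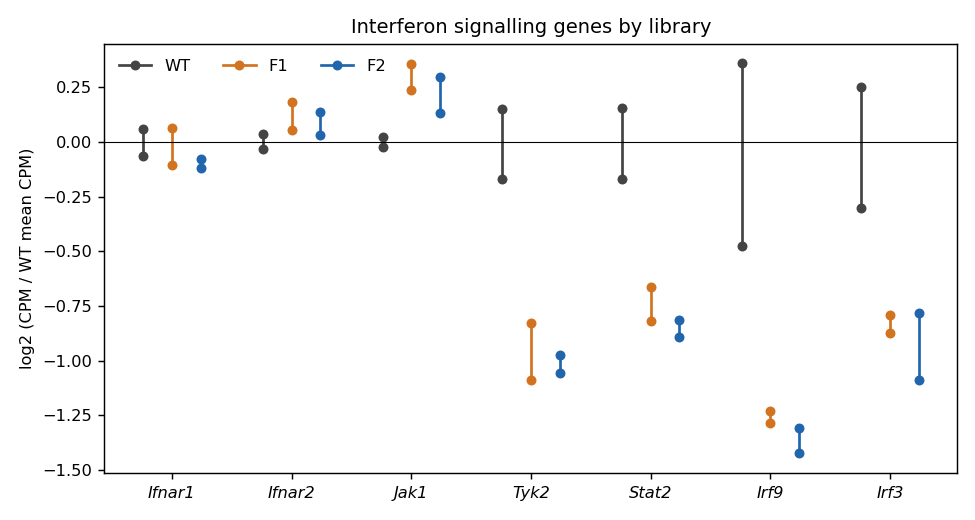
Log2 ratio of CPM to the WT mean for genes of interferon signalling. Linked points are the 2 libraries of a group. Tyk2, Stat2, Irf9 and Irf3 lie below 0 in all 4 F1 and F2 libraries, between -0.67 and -1.42, while Ifnar1, Ifnar2 and Jak1 lie within 0.36 of 0.

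Downstream and regulatory genes mostly did not pass the test. Of 17 tested sensors and adaptors, such as the RNA helicases and the Toll-like receptors, 0 were called by edgeR's exact test, with 2 in F1 and 6 in F2 at an unadjusted p under 0.05, beside 32.6% and 32.4% of all tested genes. The largest mean change was that of the kinase Ikbke, at -0.91 (edgeR adjusted p = 0.0788) and -1.25 (edgeR adjusted p = 0.0161). Of 11 tested inhibitors only Ptpn11, a phosphatase, was called, higher by 0.43 in F2 (edgeR adjusted p = 0.0074). Usp18, which removes Isg15 from proteins and blocks the receptor, was at 0.618 and 0.422 CPM in WT, 0.759 and 0.939 CPM in F1, and 0.336 and 0.334 CPM in F2. F1 lay above and F2 below WT, with changes of 0.69 (edgeR adjusted p = 0.25) and -0.64 (edgeR adjusted p = 0.488).

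Of 42 tested other type I interferon-stimulated genes, 1 was higher in F1 and 2 were lower in F2. Their median log2 fold changes were 0.02 and -0.07. The gene higher in F1 was Cmpk2, a mitochondrial nucleotide kinase, at 0.56 (edgeR adjusted p = 0.00335). Those lower in F2 were Trim30a at -0.81 (edgeR adjusted p = 0.00349) and Ifi203 at -0.95 (edgeR adjusted p = 0.00297). The antiviral Rsad2 was at 0.282 to 0.486 CPM in all libraries, and Ifit2 had changes of 0.41 (edgeR adjusted p = 0.218) and 0.60 (edgeR adjusted p = 0.0526). The largest mean change among these genes was that of Oas1a, at 1.59 (edgeR adjusted p = 0.0723) and 0.90 (edgeR adjusted p = 0.435). Mx1, an antiviral GTPase, had too few reads to be tested, with 15 and 9 reads in WT, 6 and 4 in F1, and 3 and 3 in F2. Over the 112 tested pathway genes outside the 9, 3 were higher and 2 lower in F1, and 1 was higher and 4 lower in F2, which is 4.46% in each against 12.3% and 12% of all genes.

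**Figure D4:**
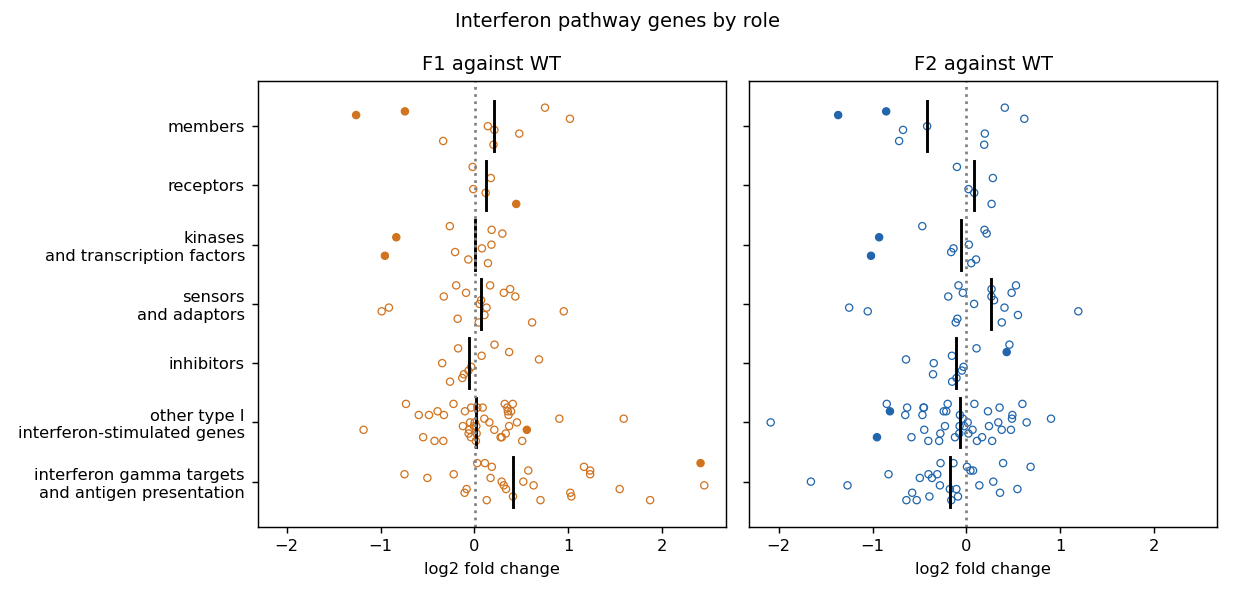
Log2 fold change of the tested genes of each pathway list, in F1 (left) and F2 (right) against WT. Filled points passed an adjusted p of 0.01, black bars are list medians, and dotted lines are the medians of all genes. Filled points left of -0.7 in both panels are Irf9 and Stat2 among the 9 genes and Tyk2 and Irf3 among the kinases and transcription factors. In the F2 panel alone, Trim30a and Ifi203 of the other type I interferon-stimulated genes are also filled there.

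F1 replicate 2 stood apart in genes of interferon gamma and antigen presentation. Of the 27 such genes tested, 21 (77.8%) were highest in that library, against 16.2% of all tested genes, and of the 7 members other than Stat2 and Irf9, 6 were highest there. H2-Eb1, an MHC class II chain, was at 0.618 and 0.774 CPM in WT, 1.25 and 6.15 CPM in F1, and 0.673 and 1.15 CPM in F2. It was the only gene of the list called, higher by 2.41 in F1 (SE 0.58, edgeR adjusted p = 0.000986), and this call was lost without F1 replicate 2. B2m, the light chain of MHC class I, overlapped between groups, with changes of 0.11 and -0.28. The list's median was 0.41 in F1 and -0.18 in F2. Without F1 replicate 1, so that F1 replicate 2 stood alone, more pathway genes outside the 9 were called in F1, most of them higher. The share of all tested genes called in F1 did not rise. Markers of monocytes, macrophages and lymphocytes summed to 22.5 CPM in F1 replicate 2, against 9.31 in F1 replicate 1, 10.1 and 10.2 in WT and 12.6 and 19.3 in F2. Of this list Lyz2 was highest, at 11.3 CPM in F1 replicate 2 and 3.73 to 8.23 CPM elsewhere, while the lymphocyte markers Cd3e and Ncr1 had at most 5 reads in any library. In that list Ly6c2 was called higher in F1 and Mrc1 in F2. Ly6c2 had few reads, 1 and 0 in WT, 20 and 34 in F1, and 2 and 9 in F2, and was high in both F1 libraries. The part of such cells in these values was not tested.

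Microglial markers summed to 157 and 158 CPM in WT, 188 and 212 CPM in F1, and 239 and 207 CPM in F2. All 12 had positive changes in both generations, and 5 passed the test in F2 (Csf1r, Cx3cr1, C1qa, Tmem119 and C1qb) and 0 in F1. At an unadjusted p under 0.05 the count was 5 of 12 in F1 and 9 in F2, beside 32.6% and 32.4% of all tested genes. Of all tested genes 12.3% were called in F1 and 12% in F2, 3.77% and 3.86% higher. Astrocyte markers summed to 2441 and 2679 CPM in WT and to 3010 to 4063 CPM in F1 and F2, with 1 of 8 called in F1 and 6 in F2, all higher. Endothelial markers summed to 140 and 153 CPM in WT and to 162 to 213 CPM in F1 and F2, with 1 and 2 of 10 called higher. Pericyte markers were also higher in sum, at 116 and 130 CPM in WT and 142 to 186 CPM otherwise, with 0 and 1 of 5 called. The counts in F1 and F2 at an unadjusted p under 0.05 were 7 and 8 of 8 for astrocytes. They were 4 and 8 of 10 for endothelial cells and 3 and 2 of 5 for pericytes. Stat2 and Irf9 were lower in the F1 and F2 libraries, where these glial and vascular markers were higher in sum, and both differences follow the same split by group. The part of cell composition in the fall of Stat2 and Irf9 was not tested. In such bulk samples fewer cells of a type and less RNA per cell cannot be told apart. Oligodendrocyte markers ranged from 1121 to 3065 CPM with WT and F2 overlapping, and 4 and 2 of 9 were called higher. Summed markers of choroid plexus and meninges ranged from 43.9 to 99.2 CPM with no order by group, and of these only Lum was called, lower in F1 than in WT (-0.62, edgeR adjusted p = 0.00359) and higher in F2 than in F1 (0.73, edgeR adjusted p = 0.00451). Haemoglobin and other red blood cell markers summed to 3.21 to 12.05 CPM, highest in F1 replicate 1, and only Hbb-b1 was called, higher in F1.

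**Figure D5:**
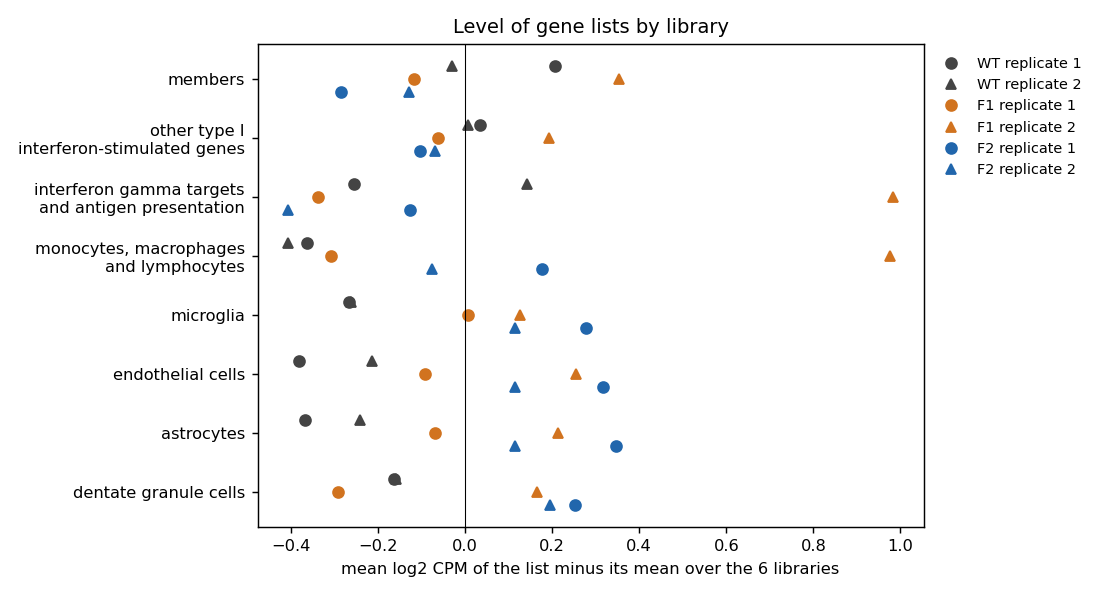
Mean log2 CPM of the genes of a list in each library, less the list's mean over the 6 libraries. Circles are replicate 1 and triangles replicate 2. F1 replicate 2 lies at 0.98 for interferon gamma targets and at 0.97 for monocyte, macrophage and lymphocyte markers, apart from the other libraries, and both WT libraries are lowest for microglia, endothelial cells and astrocytes.

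Genes near Stat2 and Irf9 were read as well, after the values of these 2 had been seen. Rnf31, a ubiquitin ligase gene on the same strand, shares its last 123 bases with the start of Irf9, and reads wholly within exons of both were not counted. Rnf31 was at 39.4 and 33.8 CPM in WT, 23.3 and 26.7 CPM in F1, and 27.9 and 28.2 CPM in F2. It fell by 0.55 in F1 (SE 0.15, edgeR adjusted p = 0.0019), and its change in F2 was -0.39 (edgeR adjusted p = 0.0412). On the other side of Rnf31, Psme2 had changes of -0.08 and -0.18 and did not pass the test. Downstream of Stat2 lies Il23a, on the opposite strand, with 1 to 5 reads per library, too few to be tested. Beyond Il23a lies Pan2, a deadenylase subunit gene on the same strand as Stat2. Pan2 was at 51.2 and 44.8 CPM in WT, 22.2 and 20.7 CPM in F1, and 24.6 and 22.6 CPM in F2. Pan2 fell by 1.16 in F1 (SE 0.14, edgeR adjusted p = 6.84e-14) and by 1.02 in F2 (SE 0.14, edgeR adjusted p = 7.16e-11). Apof, upstream of Stat2, had at most 16 reads and did not pass the test.

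As a description, Stat2 and Irf9 had a Pearson correlation of 0.97 over the 6 libraries in log2 CPM, which shares the group difference and the libraries. Ifit3 correlated at 0.85 with both Ifit1 and Bst2, and at -0.64 and -0.57 with Stat2 and Irf9. The 5 other genes whose profile was most like the mean profile of the 9, of 14650 with a mean of at least 1 CPM, were Ints8 (0.99), Ric8 (0.97), 1810055G02Rik (0.96), Mark3 (0.96) and Zfp52 (0.96). That mean profile pools Stat2 and Irf9 with genes of a different pattern, so it describes neither well. These correlations were the highest of many candidates over only 6 libraries, and no test was made of them.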

How the data were processed

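RNA was measured in 6 libraries, 2 each of WT, F1 and F2. The labels give polyA RNA. By the study's methods the authors sequenced single-end reads of 50 bases, aligned them to mm9 (NCBIM37) with TopHat without new junctions and counted them with HTSeq in its intersection-strict mode. The submitters' processing notes name TopHat2 2.0.2. The deposited values are raw counts per gene. Reads that matched several places, lay within exons of several genes or reached outside exons are not in them, which lowers genes with near-identical copies. Lines that name no gene were left out of library sizes.

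Low genes were removed with filterByExpr, libraries were scaled by TMM, and groups were compared by the exact test of edgeR 4.0.16 in R 4.3.3, with common then tagwise dispersion over the 6 libraries, Benjamini-Hochberg adjustment over 17421 genes and a threshold of 0.01, as in the study's results. The methods of the study name edgeR and tagwise dispersion, not the test, and a threshold of 0.05, which was an alternative. Standard errors come from mean counts and tagwise dispersion by the delta method, and the fitted fold changes of low genes are drawn slightly toward 0 by edgeR's prior count. The procedure was tested on simulated data. As alternatives the quasi-likelihood and the likelihood-ratio test of edgeR, DESeq2 1.42.0, other scalings and filters, a replicate block and leaving out each library in turn were tried. A likelihood-ratio test without block, the same with GC and length offsets and a crossed block were added after seeing the data.

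The genes and lists were chosen with earlier results of these data known. Named from the lists were a fixed set of pathway genes, genes called in both generations in the same direction, the largest mean change in a list, and single calls given beside a count. Other genes named were chosen after their values were seen. The 9 genes matched GENCODE M1 on mm9, and promoter windows are from RefSeq on GRCm38.p6, with no conversion between builds. Some genes of the lists are counted but not reported here by name. Replicates were not duplicates, with a chi-square per degree of freedom of 18.5 to 23.0 between them. The depth leaves the number of libraries as the limit on precision, except for genes with few reads. The bisulfite samples were not analysed here. Plots were made with Python 3.11.15 and matplotlib 3.10.9.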

Additional observations from a re-analysis of the deposited data

How the results depend on the processing

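Stat2 and Irf9 were called lower in F1 and in F2, and the other 7 genes were not, under all 12 alternatives that kept every library at a threshold of 0.01, with log2 fold changes from -0.77 to -0.72 and -0.88 to -0.83 for Stat2 and from -1.29 to -1.22 and -1.40 to -1.33 for Irf9. Over these edgeR and DESeq2 fits the highest adjusted p-values of Stat2 were 0.00417 in F1 and 0.00213 in F2. For Irf9 they were 0.00389 and 0.00302, and for Irf3 0.00997 and 0.0064. Ifit3 joined Stat2 and Irf9 in F1 at a threshold of 0.05, where 20.8% of all genes were called. Leaving out 1 library gave 1 to 4 of the 9 called in F1 and 2 to 2 in F2. The 1 came without WT replicate 1 and the 4 without F1 replicate 1. The library left alone in its group was taken to vary like the other groups.

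The count of other pathway genes called, 5 in each generation, was 2 and 2 by the quasi-likelihood test, 8 and 13 at a threshold of 0.05, and with a library left out it ranged from 1 to 18 for F1 and 1 to 7 for F2. The replicate numbers as given did not pair the samples (correlations of deviations -0.03, -0.08 and -0.18). With the replicate block the quasi-likelihood test called 3 and 2, and the likelihood-ratio test 4 and 4. Crossing the F2 numbers in the block gave 6 and 11. Over all genes the quasi-likelihood test called 1029 in F1 and 997 in F2, beside 2144 and 2084 by the exact test. With the block it called 848 and 758. The likelihood-ratio test called 2253 and 2211 of all genes without the block, 1743 and 1758 with it. With the F2 numbers crossed it called 2679 (15.4%) and 2752 (15.8%). The cause of this rise was not tested.

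Directions turned in 14 cases, none of them a called difference. Of these, 3 were Ifitm3 between F2 and F1 in the fits with a replicate block (0.0219, 0.0225 and, crossed, 0.0172). Between F2 and F1, leaving out a library gave values from -0.74 to 0.0708 for Ifit1, -0.77 to 0.10 for Ifit3, -0.33 to 0.39 for Ifitm3, -0.77 to 0.28 for Bst2, -0.18 to 0.0714 for Tyk2 and -0.26 to 0.0515 for Irf3. Against WT it gave -0.20 to 0.44 for Oasl2 and -0.19 to 0.53 for Ifitm3 in F1, and -0.26 to 0.55 for Ifit1 in F2. The causes were not tested.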
